A study of Mus musculus with 24 samples.

Results

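The ERVL-MaLR class of mouse repeats was followed through the cleavage stages of control embryos and of embryos in which the related retrovirus MERVL had been knocked down (MERVL-KD). Its members were taken by name, as every row of the RNA count tables that the repeat annotation puts in the class LTR/ERVL-MaLR. This gave 99 repeat types among 1035 repeat types and 56326 genes and repeat types in all. They comprised 20 MT types, 29 ORR1 types and 50 MLT types, and 50 of the 99 were internal regions (names ending in -int) while 49 were long terminal repeats (LTRs). MLT types made up 50 of the 99 names but took only 0.00267% to 0.00424% of the counts of a library, so that the class as measured here was almost entirely MT and ORR1.

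Mouse zygotes from 8-week-old B6D2F1 parents were microinjected in the male pronucleus with antisense oligonucleotides (ASOs), short modified DNA strands through which a matching RNA is cleaved, and were cultured to the 2-cell, 4-cell or 8-cell stage. MERVL-KD embryos had received 3 ASOs against MERVL and control embryos a scrambled ASO. Each library was total RNA of 30 pooled embryos that had been staged by eye, with 2 biological replicates per group and 12 libraries in 6 groups, so that all p-values measure the spread between 2 such pools. The labels give all embryos the background strain BDF2, put the 2-cell embryos at 1.5 days post coitum and give the 4-cell and 8-cell embryos the same 2.5 days. No gene was deleted and no transgene was used, so by design the groups differed by the injected oligonucleotide and the stage. The paper reports that MERVL-KD embryos were delayed in development. Pools picked by stage may thus hold different fractions of the embryos of each group, and may differ in delay. The part of this selection in the results below was not tested. The RNA of 30 embryos was read as a pool, in which fewer expressing cells and less RNA per cell cannot be told apart.

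MaLRs (mammalian apparent LTR retrotransposons) are short, non-autonomous relatives of the ERVL retroviruses: an LTR, which holds the promoter, flanks an internal stretch that encodes no retroviral protein. MT and ORR1 elements belong to the rodent lineage, and the lettering within each family runs from the youngest elements (MTA, ORR1A) to older ones, whereas MLT elements are older and shared with other mammals. In mouse oocytes and early embryos MT and ORR1 LTRs are well known as promoters and first exons of host transcripts, the oocyte form of Dicer1 from an MTC LTR being the textbook case. A count on an MT or ORR1 type may therefore come from the element itself, from a host transcript that begins in it, or from an intron that contains it, and their parts in the results were not tested.

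By design, the 4 oligonucleotides are the difference between control and MERVL-KD, and they are printed for that reason. Each is given as 1 strand from 5′ to 3′ with no position emphasized. The first 3 were directed at MERVL, which belongs to the class ERVL and not to ERVL-MaLR. Whether single MT or ORR1 copies match them was not tested.
MERVL-ASO1: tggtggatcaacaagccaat
MERVL-ASO2: catttgtctgtttaccacga
MERVL-ASO3: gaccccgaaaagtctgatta
Scramble-ASO: agcgcgggtattgaaccagg

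Libraries held 28167085 to 41482526 counts, of which 15.8% to 25.2% lay on repeats. The target fell as labelled: MERVL-int took 6.33% and 6.57% of the counts of control 2-cell libraries and 0.143% and 0.157% in MERVL-KD, and in all later stages the MERVL-KD libraries were again lower than the controls (at most 0.0544% against at least 1.07%). Summed over 6 oocyte markers, 2-cell libraries held 1149 to 1228 CPM (counts scaled to the effective size of each library) in control and 741 to 835 in MERVL-KD, and 7 markers of the 2-cell embryo summed to 613 to 685 and 324 to 413 CPM. Markers of the 8-cell embryo (7 genes) summed to 367 to 391 CPM in control and 303 to 337 in MERVL-KD at the 4-cell stage, and to 527 to 578 and 408 to 452 at the 8-cell stage. The sums of these stage markers thus moved with the knockdown, and their part in the results below was not tested. Single genes went the other way. At the 4-cell stage Krt8 held 4.20 and 5.52 CPM in control and 24.6 and 28.1 in MERVL-KD. Krt18 held 3.23 and 3.40 against 10.2 and 7.39. Zp3 held 21.5 and 24.1 CPM in control 2-cell libraries and 29.2 and 26.3 in MERVL-KD. Markers of cumulus and granulosa cells (8 genes) and of sperm (4 genes) stayed at or below 6.36 and 1.40 summed CPM in every library.

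At the 2-cell stage the class took 5.27% and 5.09% of all counts in control against 3.89% and 3.79% with the knockdown. In 4-cell embryos the shares were 1.87% and 1.88% (control) against 1.07% and 0.991% (MERVL-KD), and in 8-cell embryos 1.22% and 1.21% against 0.923% and 0.873%. The MERVL-KD libraries lay below the controls at each stage, and the 2 groups did not overlap. The shares are descriptions without a test, as each group had 2 libraries. MERVL also takes a smaller part of the denominator in MERVL-KD. With MERVL-int and MT2_Mm left out of the denominator, the mean shares in control and MERVL-KD were 5.56% and 3.85% at the 2-cell stage. They were 1.92% and 1.03% at the 4-cell stage and 1.23% and 0.898% at the 8-cell stage. Split by family, MT types took 3.83% and 3.46% of control 2-cell libraries against 1.96% and 2.11% with the knockdown, whereas ORR1 types took 1.44% and 1.63% against 1.93% and 1.68%. ORR1 was thus not below control at the 2-cell stage, but it was in 4-cell embryos (1.20% and 1.18% against 0.722% and 0.625%) and in 8-cell embryos (0.799% and 0.815% against 0.614% and 0.578%).

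**Figure D1:**
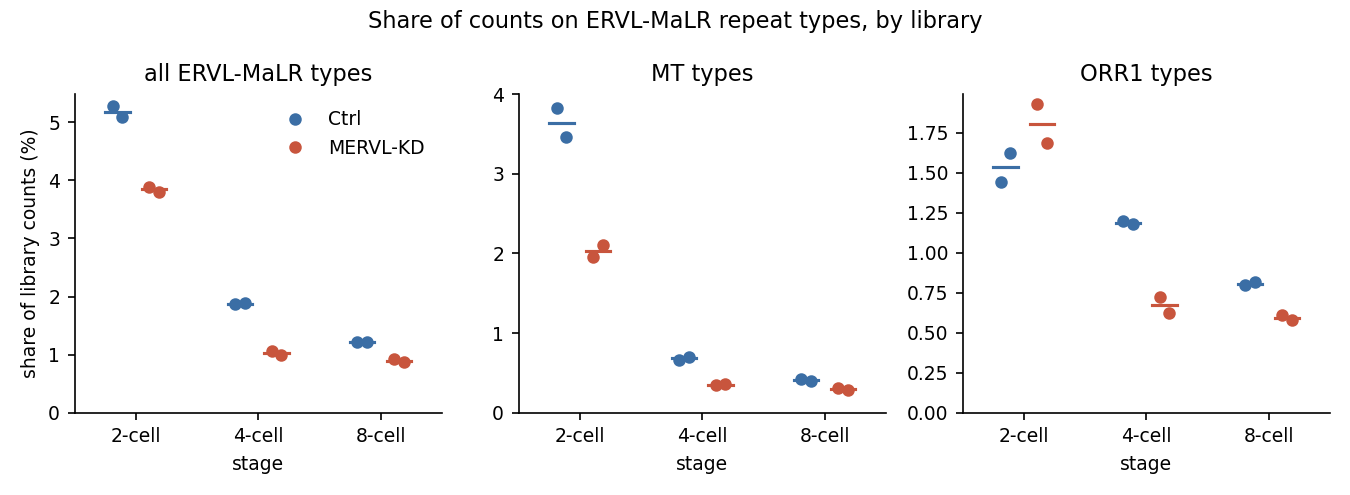
Share of all counts of a library (%, y axis) on all 99 ERVL-MaLR types, on MT types and on ORR1 types, by stage; each point is 1 library and each bar the mean of 2. MT shares are lower in MERVL-KD from the 2-cell stage on, while ORR1 shares are lower from the 4-cell stage on.

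A single subfamily dominated the class at the 2-cell stage. MTA_Mm and MTA_Mm-int, the LTR and internal region of the youngest MT elements, together made up 68.0% and 63.8% of all ERVL-MaLR counts in control 2-cell libraries, 23.6% and 24.9% at the 4-cell stage and 21.9% and 20.4% at the 8-cell stage. In MERVL-KD the corresponding parts were 44.1% and 49.2%, then 14.6% and 16.8%, then 12.4% and 12.2%. In control 4-cell and 8-cell embryos ORR1A0-int held mean levels of 4135 and 3243 CPM, above MTA_Mm-int at 3100 and 2008. Levels of different types were compared as CPM per kilobase of mean copy length, which does not correct for the number of copies. On this scale control 2-cell embryos held 28525 ± 717 of the MTA_Mm LTR and 26900.2 ± 749 of MTA_Mm-int (mean ± SD, n = 2), followed by ORR1A0-int at 5707 ± 908. ORR1A1-int at 3313 ± 522 and the ORR1A0 LTR at 3105 ± 377 came next and did not differ beyond their spread. The order changed with stage and knockdown. In control 8-cell embryos ORR1A0-int (2393 ± 10.6), MTA_Mm (2356 ± 219) and MTA_Mm-int (2031 ± 134) stood at the top, with the first 2 within their spread of each other. In MERVL-KD 8-cell embryos the ORR1A2 LTR (1720.4 ± 48.4) and the MTD LTR (1719 ± 30.9) led, and MTA_Mm stood at 1299 ± 28.5 and ORR1A0-int at 725 ± 18.3.

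Differences were tested with edgeR's quasi-likelihood test on all genes and repeat types together, with TMM scaling and Benjamini-Hochberg adjustment over all of them. A type was called when its adjusted p was under 0.05 and its change at least 2-fold. Low counts removed 25 of the 99 types at every stage, of which 24 were MLT types and 1 an ORR1 type. All 20 MT types and 28 of 29 ORR1 types were tested at least at 1 stage, and 62 of the 99 were tested at all 3.

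In 2-cell embryos with the knockdown MTA was lower, and 61 of 66 types did not pass the test. Of the 66 types tested, 2 were called lower, against 2.22% of all features tested, and 0 higher, against 4.26%. Of 66 types, 2 is a share near that background. By adjusted p alone 4 were lower, against 7.23% of all features, and 1 was higher, against 6.74%. The median log2 fold change of the 66 types was 0.03, beside 0.02 over all features.

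MTA_Mm-int held 27121 and 26074 CPM in control 2-cell libraries and 10287 and 11330 in MERVL-KD. The MTA_Mm LTR held 11170 and 10780 CPM in control and 4203 and 4731 in MERVL-KD. For both, the groups lay far apart and their replicates close together, which their call from these same libraries already requires. The log2 fold changes were −1.22 ± 0.06 (SE) for MTA_Mm-int (adjusted p = 3.64e-09) and −1.21 ± 0.07 for MTA_Mm (adjusted p = 9.79e-09), so that LTR and internal region fell by almost the same factor. MT-int, an internal consensus shared by MT elements, went from 656 and 598 to 266 and 329 CPM. Its log2 fold change of −0.99 ± 0.10 (adjusted p = 8.09e-06) lay just under the 2-fold threshold and passed it without control replicate 2 (−1.08) or without MERVL-KD replicate 2 (−1.16). MTA stayed the most abundant of the class in MERVL-KD 2-cell embryos all the same, at 11611 ± 969 CPM per kilobase for the LTR.

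The other MT subfamilies did not reach the threshold at the 2-cell stage. MTB-int (−0.31 ± 0.11, adjusted p = 0.066), MTB_Mm-int (−0.30 ± 0.11, adjusted p = 0.0983) and MTC-int (−0.23 ± 0.09, adjusted p = 0.105) had negative estimates that did not pass. The MTD LTR, per kilobase the most abundant MT type after MTA, held 563 and 509 CPM in control and 504 and 484 in MERVL-KD. Within ORR1, ORR1A0-int held 6866 and 8606 CPM in control and 6677 and 5847 in MERVL-KD, so that the MERVL-KD values lay just below the control values, and its log2 fold change was −0.22 ± 0.09 (adjusted p = 0.142). ORR1A1-int held 3527 and 4411 CPM in control against 4238 and 3754 with the knockdown, with overlapping groups and an estimate of 0.10 ± 0.09 (adjusted p = 0.564). The ORR1A1 LTR was higher by adjusted p at 0.30 ± 0.08 (adjusted p = 0.0273), and ORR1C2-int lower at −0.38 ± 0.12 (adjusted p = 0.0464), both under 2-fold. Single libraries moved these ORR1A estimates. Without control replicate 1 the ORR1A1 LTR stood at 0.18 (adjusted p = 0.366) and without MERVL-KD replicate 1 at 0.25 (adjusted p = 0.0525), and in the fit of all 12 libraries at 0.21 (adjusted p = 0.19). ORR1A0-int stood at −0.38 without control replicate 1 and at −0.33 without MERVL-KD replicate 1. It stood at −0.07 without control replicate 2, at −0.13 without MERVL-KD replicate 2 and at 0.07 with total counts. With a filter of at least 1 count in any library it passed with all libraries kept (−0.22, adjusted p = 0.0205).

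Of the 3 stages, scaling moved the median of all features most at this one. Total counts in place of TMM put the median of all features at 0.31, and MTA_Mm-int and MTA_Mm then stood at −0.93 and −0.93, still lower by adjusted p (7.38e-08 and 1.65e-07) but under 2-fold, so that 0 types were called. By adjusted p alone 3 types were then lower and 24 higher, against 4 and 1 with TMM, with a median of 0.32 over the class. Over all 21347 features 702 were then lower and 4581 higher, against 1544 and 1438 with TMM.

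**Figure D2:**
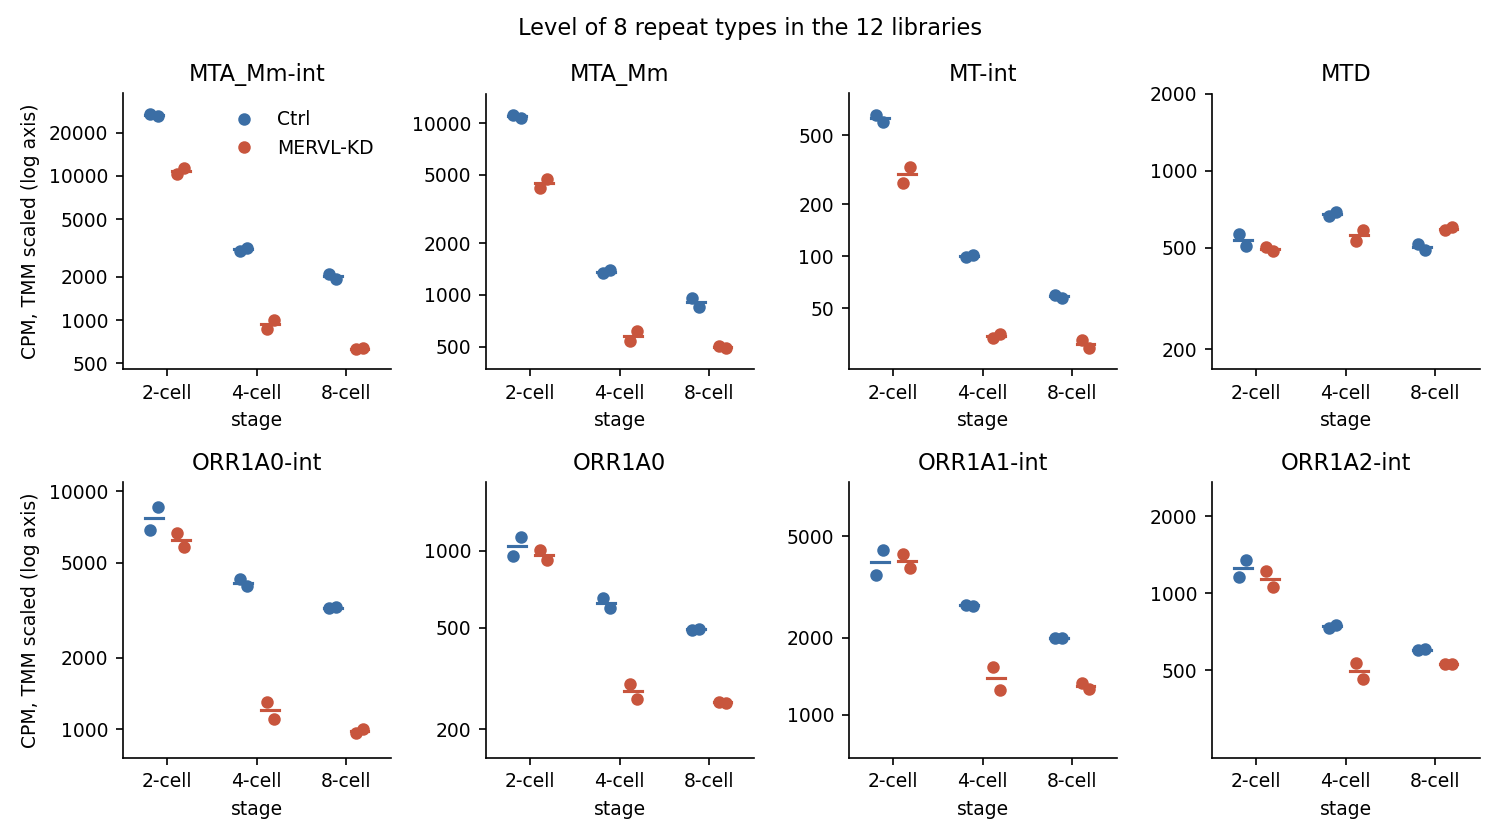
Level (CPM after TMM scaling, log y axis, each panel on its own range) of 8 repeat types in the 12 libraries by stage; points are libraries and bars means of 2. MTA_Mm, MTA_Mm-int and MT-int lie lower in MERVL-KD at all 3 stages. ORR1A0, ORR1A0-int, ORR1A1-int and ORR1A2-int lie apart from the 4-cell stage on, ORR1A2-int without passing the test at the 8-cell stage. MTD lies lower at the 4-cell and higher at the 8-cell stage without passing the test.

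In 4-cell embryos the young ORR1A0 elements were lower together with MTA. Of 72 types tested 5 were called lower, against 1.87% of all features, and 0 were called higher, against 2.58%. The 5 were MTA_Mm-int, MTA_Mm, MT-int, ORR1A0-int and ORR1A0. By adjusted p alone 10 were lower, against 5.75% of all features, and 0 higher, against 4.83%. Of the 72 estimates 61 were negative, with a median of −0.24 beside 0.01 over all features. Classes that are not related to MERVL also had negative medians at this stage: −0.17 over 116 LINE/L1 types, −0.16 over 33 SINE types and −0.12 over 269 ERVK types.

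ORR1A0-int held 4270.2 and 3999 CPM in control 4-cell libraries and 1307 and 1102 in MERVL-KD. Its log2 fold change was −1.77 ± 0.10 (adjusted p = 1.23e-06), the most negative estimate among the called types. The ORR1A0 LTR went from 653 and 597 to 301 and 262 CPM (−1.14 ± 0.10, adjusted p = 2.35e-05). MTA_Mm-int went from 3016 and 3184 to 871 and 994 CPM (−1.73 ± 0.09, adjusted p = 8.4e-07). The MTA_Mm LTR went from 1334 and 1404 to 542 and 613 CPM (−1.24 ± 0.09, adjusted p = 6.92e-06). MT-int, at 98.3 and 101 CPM in control, stood at 33.5 and 35.4 in MERVL-KD (−1.53 ± 0.11, adjusted p = 7.44e-06). In none of the 5 did the groups overlap, and in each the replicates differed by far less than the groups. The 5 were picked by their test in these same libraries, so this separation adds no support to the calls.

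From ORR1A0 to ORR1A2 the estimates came closer to 0, which was not tested as a trend. ORR1A1-int, at 2684 and 2674 CPM in control and 1538 and 1252 in MERVL-KD, had −0.94 ± 0.10 (adjusted p = 0.000135), and ORR1A2-int, at 733 and 751 against 532 and 461, had −0.57 ± 0.09 (adjusted p = 0.0025). Both were lower by adjusted p and under 2-fold. ORR1A3-int (−0.17 ± 0.11, adjusted p = 0.399) and ORR1A4-int (−0.21 ± 0.11, adjusted p = 0.26) did not pass. The LTRs had the same order with smaller estimates for ORR1A0 to ORR1A2: −1.14, −0.50 ± 0.09 for ORR1A1 (adjusted p = 0.00381) and −0.26 ± 0.08 for ORR1A2 (adjusted p = 0.0727). Older ORR1 letters had no such gradient: from ORR1B to ORR1D the LTR estimates lay between −0.24 and −0.19 and none passed the test. The MT letters showed a single step after MTA, with LTR estimates of −0.24 to −0.29 for MTB_Mm, MTB, MTC and MTD and adjusted p from 0.064 to 0.165. Outside these, ORR1E-int (−0.50 ± 0.14, adjusted p = 0.0416) and MTE2b-int (−0.57 ± 0.16, adjusted p = 0.045) completed the 10 types that were lower by adjusted p. ORR1A1-int was also called without MERVL-KD 4-cell replicate 1 (−1.10), when 7 types were called in all.

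**Figure D3:**
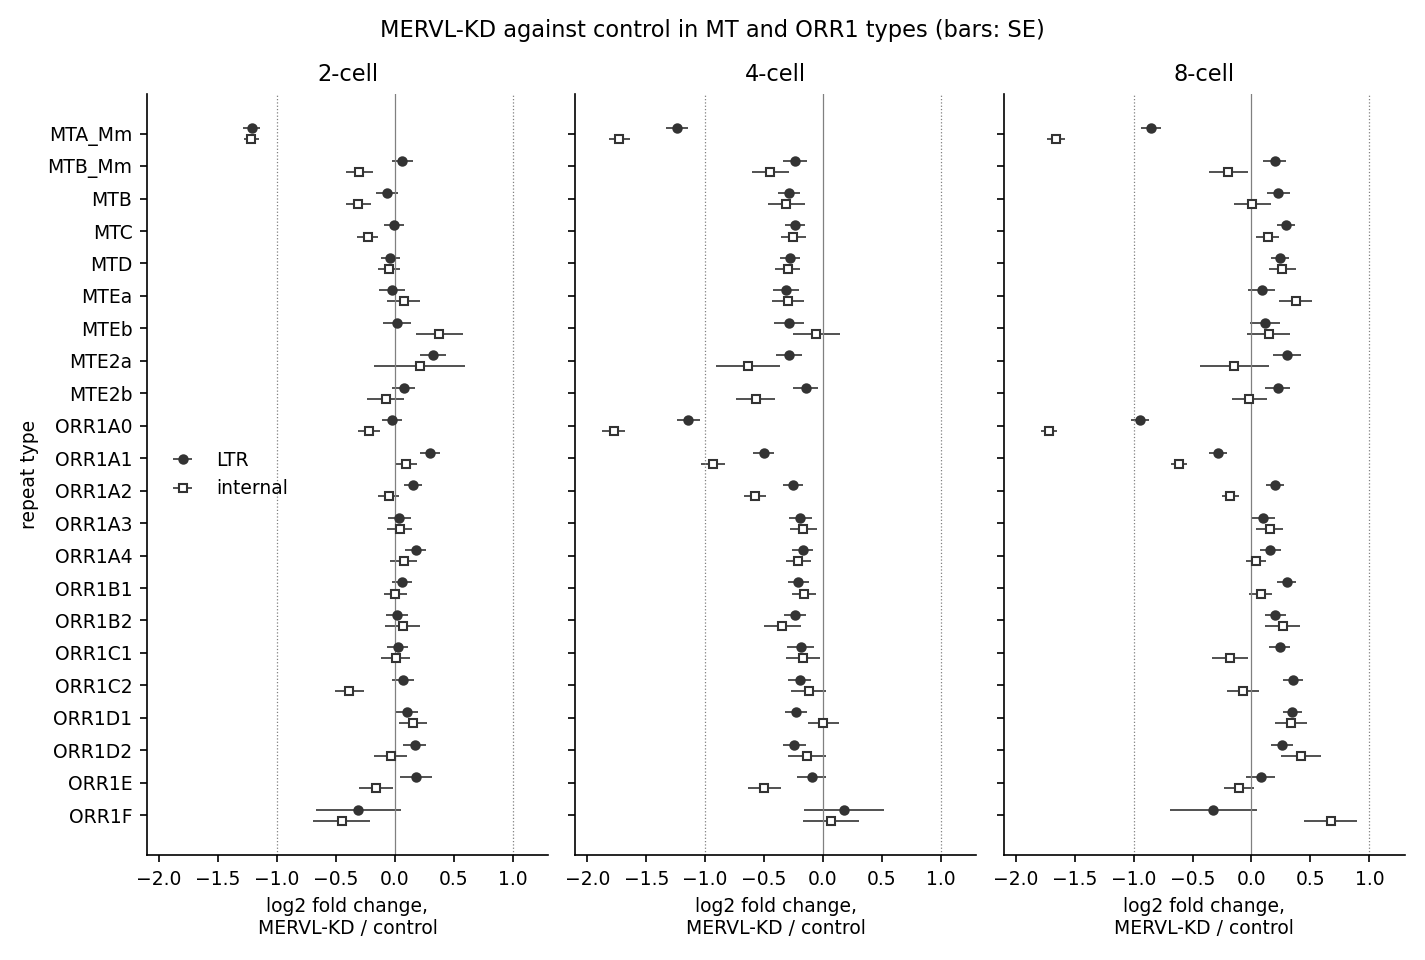
Log2 fold change of MERVL-KD against control (x axis, bars SE, dotted lines at 2-fold) for MT and ORR1 types with an LTR (filled circles) and an internal region (open squares), from the first to the last letter of each family, by stage. MTA_Mm stands apart at each stage, and ORR1A0 and ORR1A1-int stand apart at the 4-cell and 8-cell stages, whereas the ORR1A2 LTR lies beside the older LTRs.

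In 8-cell embryos the internal regions of ORR1A0 and MTA_Mm were the 2 of 64 types called lower, against 1.07% of all features, and 0 were called higher, against 0.632%. ORR1A0-int went from 3233 and 3254 CPM to 965 and 999.95 (−1.71 ± 0.07, adjusted p = 1.43e-07), and MTA_Mm-int from 2102 and 1915 to 626 and 636 (−1.66 ± 0.08, adjusted p = 2.31e-07). By adjusted p 6 types were lower, against 3.51% of all features, and 2 higher, against 1.62%. Beside the 2 called, the lower types were ORR1A0 and MTA_Mm LTRs and 2 internal types, all under 2-fold: ORR1A0 −0.94 ± 0.08 (adjusted p = 2.1e-05), MTA_Mm −0.85 ± 0.08 (adjusted p = 9.7e-05), MT-int −0.90 ± 0.12 (adjusted p = 0.00151) and ORR1A1-int −0.61 ± 0.07 (adjusted p = 0.000357). The ORR1A0 LTR held 492 and 496 CPM in control and 255 and 255 in MERVL-KD. Most of the remaining types now had positive estimates, 43 of 64 in all, with a median of 0.11 beside 0.01 over all features; most of these did not pass the test. Medians of other classes were positive as well, at 0.32 over SINE, 0.18 over ERVK, 0.18 over ERV1 and 0.12 over LINE/L1 types. The ORR1D1 LTR (0.35 ± 0.08, adjusted p = 0.0306) and the ORR1C2 LTR (0.35 ± 0.09, adjusted p = 0.0365) were higher by adjusted p. With total counts in place of TMM the median of all features was 0.14, and 6 types were lower and 7 higher by adjusted p, against 6 and 2. Over all 19153 features 377 were then lower and 627 higher, against 672 and 311 with TMM.

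Whether the effect of the knockdown itself differed between stages was tested in 1 fit of the 12 libraries. Of 75 types tested, 5 had a more negative effect at the 4-cell than at the 2-cell stage, against 1.65% of all features, and 0 a more positive one, against 2.47%. The count of 5 was 18 with total counts, 8 with DESeq2, 9 with at least 10 counts in every library, 9 without MERVL-KD 8-cell replicate 2 and 8 without either control 8-cell replicate. Over all 24850 features total counts gave 1387 more negative effects, against 411 with TMM. The 5 types were ORR1A0-int (difference of log2 fold changes −1.47 ± 0.15, adjusted p = 4.99e-06), the ORR1A0 LTR (−1.04 ± 0.14, adjusted p = 0.000179), ORR1A1-int (−0.95 ± 0.15, adjusted p = 0.0008), the ORR1A1 LTR (−0.72 ± 0.13, adjusted p = 0.00254) and MTA_Mm-int (−0.43 ± 0.12, adjusted p = 0.039). At the 8-cell stage against the 2-cell stage the 4 ORR1A types passed again, against 1.63% of all features, and 0 types had a more positive effect, against 2.35%. The differences were −1.42 ± 0.15 for ORR1A0-int (adjusted p = 5.9e-06), −0.84 ± 0.14 for ORR1A0, −0.63 ± 0.15 for ORR1A1-int and −0.50 ± 0.13 for ORR1A1. At the 2-cell stage the estimates were −0.22 for ORR1A0-int, −0.02 for the ORR1A0 LTR and 0.10 for ORR1A1-int. None passed with TMM scaling and the default filter. With total counts the ORR1A0 LTR (0.27, adjusted p = 0.0267) and ORR1A1-int (0.39, adjusted p = 0.0041) passed as higher. ORR1A0-int passed as lower with a filter at 1 count. In 4-cell and in 8-cell embryos ORR1A0-int, the ORR1A0 LTR and ORR1A1-int were each lower by adjusted p. The ORR1A1 LTR instead went from 0.30 at the 2-cell to −0.28 at the 8-cell stage, where it did not pass (adjusted p = 0.0594), so that its difference is a turn of sign between estimates of like size. For MTA the LTR and internal region had differences of opposite sign at the 8-cell stage, 0.44 for MTA_Mm (adjusted p = 0.0537) and −0.37 for MTA_Mm-int (adjusted p = 0.0845). Neither passed here, but MTA_Mm passed in 4 and MTA_Mm-int in 5 of 19 alternatives. MT-int did not pass at the 4-cell against the 2-cell stage (−0.46 ± 0.15, adjusted p = 0.0974), but passed in 7 of 19 alternatives.

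The 2 ORR1A0 types passed at both stages in each of the 19 alternatives, in which the difference for ORR1A0-int ranged from −1.78 to −1.30 at the 4-cell stage and from −1.66 to −1.25 at the 8-cell stage. The difference for MTA_Mm-int lost its call without control 2-cell replicate 1 (−0.44) or 2 (−0.41), MERVL-KD 2-cell replicate 2 (−0.37), control 4-cell replicate 1 (−0.47) or 2 (−0.39) or MERVL-KD 4-cell replicate 1 (−0.34), with adjusted p from 0.0529 to 0.165. At the 8-cell stage ORR1A1-int lost its call without control 2-cell replicate 1 (−0.46, adjusted p = 0.0774) or MERVL-KD 2-cell replicate 1 (−0.53, adjusted p = 0.118). The ORR1A1 LTR lost it without either of those libraries (−0.37 and −0.47), without MERVL-KD 2-cell replicate 2 (−0.53), without control 4-cell replicate 1 or 2 (−0.50 and −0.50) and without MERVL-KD 8-cell replicate 1 (−0.52), with adjusted p from 0.0523 to 0.185. Between the 8-cell and 4-cell stages 0 of 75 types passed in edgeR, against 0.338% of all features more negative and 0.302% more positive, although 30 had an unadjusted p under 0.05, against 11.8% of all features, and DESeq2 gave 9 types with a more positive effect at the 8-cell stage.

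Among the ERVL relatives 3 types changed with stage in the other direction. Of the 10 ERVL types examined, 4 were called lower at each of the 3 stages: MERVL-int, MERVL_2A-int, MT2_Mm, which is the LTR of MERVL, and ERVL-B4-int. MERVL-int had −5.72 ± 0.08, −5.53 ± 0.25 and −5.39 ± 0.08 at the 3 stages, and its effect did not differ by test between the 4-cell and 2-cell stages (0.27 ± 0.23, adjusted p = 0.628). MT2_Mm had −2.53 ± 0.08, −1.63 ± 0.09 and −1.03 ± 0.08, a difference of 0.98 ± 0.13 between the 4-cell and 2-cell stages (adjusted p = 0.000163). MERVL_2A-int (1.56 ± 0.15, adjusted p = 3.12e-06) and ERVL-B4-int (1.42 ± 0.21, adjusted p = 0.000437) likewise had weaker effects at the 4-cell stage. Over the 3 stages MERVL_2A-int held mean levels of 2182, 679 and 426 CPM in control. In MERVL-KD it held 111, 102 and 108 CPM. ERVL-B4-int held 106, 43.3 and 31.5 CPM in control and 9.94, 10.8 and 13.8 in MERVL-KD. Both thus fell in control and changed far less in MERVL-KD. Of 44 ERVL types in the fit, 4 had a more positive and 0 a more negative effect at the 4-cell stage, while the 75 ERVL-MaLR types had 0 and 5. Over all features the shares were 2.47% and 1.65%. In the same order 123 LINE/L1 types had 0 and 8, 272 ERVK types 3 and 2, and 82 ERV1 types 2 and 0. More negative effects alone were thus not particular to ERVL-MaLR.

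Changes between stages without the knockdown were read from the control libraries alone, which came from cultured embryos injected with the scrambled ASO. From the 2-cell to the 4-cell stage 6 of 70 types were called lower, against 27.6% of all features, and 6 higher, against 24.6%, both shares of the class being below those of all features without a test of that difference. By adjusted p 11 were lower and 25 higher, against 33% and 32.3%. Of the 6 called lower 5 were MT types. MTA_Mm-int fell from 27121 and 26074 to 3016 and 3184 CPM (−3.02 ± 0.07, adjusted p = 1.59e-09) and the MTA_Mm LTR from 11170 and 10780 to 1334 and 1404 CPM (−2.92 ± 0.07, adjusted p = 2.13e-09). MT-int fell from 656 and 598 to 98.3 and 101 CPM (−2.57 ± 0.09, adjusted p = 9.73e-09). MTB_Mm-int (−1.31 ± 0.12, adjusted p = 4.53e-06) and MTB-int (−1.08 ± 0.11, adjusted p = 1.03e-05) fell as well, while the MTB_Mm LTR (−0.29 ± 0.09) and the MTB LTR (0.21 ± 0.09) did not reach 2-fold.

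Among MT and ORR1 the called rises lay in older letters. MTEa-int rose from 22.3 and 22.0 to 58.0 and 51.0 CPM (1.38 ± 0.13, adjusted p = 5.15e-06). ORR1D-int (1.14 ± 0.19, adjusted p = 0.000489) and MTE2a-int (1.26 ± 0.39, adjusted p = 0.0158) rose too, but without control 2-cell replicate 2 they were no longer called (0.92 and 0.68). Of the 13 ORR1 LTRs tested, 10 were higher by adjusted p and 1 lower, the ORR1A0 LTR (−0.65 ± 0.10). ORR1D1 at 0.78 ± 0.09 and ORR1C2 at 0.73 ± 0.09 had the largest of these changes, all under 2-fold. ORR1A0-int (−0.82 ± 0.10), ORR1A1-int (−0.48 ± 0.10) and ORR1A2-int (−0.67 ± 0.09) were lower by adjusted p, all under 2-fold. Without control 2-cell replicate 1 ORR1A0-int was called at −1.02.

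The MLT calls at this step rested on few counts. MLT1C2-int had 0 counts in both control 2-cell libraries and 15 and 22 at the 4-cell stage, at least 6.17-fold higher against a floor of 3 counts per library. MLT1H1-int had 1 and 0 counts against 12 and 9, and lost its call in 6 of its 10 alternatives, among them without either control 2-cell replicate. MLT1E2 had 36 and 18 counts at the 2-cell stage and 113 and 72 at the 4-cell stage (1.89 ± 0.49, adjusted p = 0.00627), a call that was lost without control 2-cell replicate 2 (1.34, adjusted p = 0.0629). MLT1F1 went from 118 and 84 to 54 and 36 counts (−1.03 ± 0.40, adjusted p = 0.0437) and lost its call without control 2-cell replicate 1 (−0.69) or control 4-cell replicate 2 (−0.93), and in 4 other alternatives. The more abundant MLT LTRs were MLT1C, MLT1C2, MLT1A0, MLT1B and MLT1D, at 2.51 to 7.43 CPM over the 12 libraries. In the comparisons of MERVL-KD with control, 0 MLT types passed the test at any stage in edgeR, with 0, 2 and 0 types at an unadjusted p under 0.05 among the 18, 24 and 16 tested, against 26.8%, 24.9% and 19.5% of all features.

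From the 4-cell to the 8-cell stage 0 of 69 types were called at 2-fold in control embryos, against 1.04% of all features lower and 0.667% higher. By adjusted p 27 of 69 were lower, against 4.35% of all features, and 0 higher, against 6.35%, with a median of −0.36 beside −0.02 over all features. Estimates were negative in 20 of 20 MT and 28 of 28 ORR1 types. MTA_Mm-int (−0.64 ± 0.06), MT-int (−0.79 ± 0.09), MTD (−0.45 ± 0.07), ORR1A0-int (−0.37 ± 0.05) and ORR1D1 (−0.45 ± 0.07) were among the 27, which spanned the youngest and the older letters. Medians of other classes were negative as well, at −0.45 over LINE/L1, −0.35 over SINE and −0.31 over ERVK types.

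In MERVL-KD embryos the ORR1A0 to ORR1A2 internal regions fell along with MTA. From the 2-cell to the 4-cell stage 10 of 69 types were called lower, against 25.7% of all features, and 1 higher, against 22.7%. By adjusted p 15 were lower, against 30.3%, and 10 higher, against 29.3%. With total counts these were 18 and 4, beside 7395 lower and 5747 higher among all 22281 features. MTA_Mm fell by 2.91 ± 0.11 on the log2 scale, much as in control, and MTA_Mm-int by 3.50 ± 0.11. ORR1A0-int fell from 6677 and 5847 to 1307 and 1102 CPM (−2.34 ± 0.11, adjusted p = 5.72e-08), ORR1A0 by 1.74 ± 0.11, ORR1A1-int by 1.48 ± 0.12 and ORR1A2-int by 1.16 ± 0.11 on the log2 scale. The tests of the difference between these declines and those of control are those of the stage effect above, in which the 2 ORR1A0 and 2 ORR1A1 types passed and ORR1A2-int did not (−0.45 ± 0.14, adjusted p = 0.0749). MTEa-int rose (1.04 ± 0.15), but was under 2-fold in 4 of 14 alternatives (0.86 to 1.00), among them without MERVL-KD 4-cell replicate 2 (0.89). Without MERVL-KD 4-cell replicate 1 MTB-int, which fell by 1.05 ± 0.15 with all libraries, lost its call at −0.92. MLT1G3-int, with 41 and 28 counts at the 2-cell stage and 2 and 0 at the 4-cell stage, was the remaining type outside MT and ORR1 that was called.

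From the 4-cell to the 8-cell stage 0 of 69 types were called in MERVL-KD, against 0.661% of all features lower and 0.202% higher, and by adjusted p 0 were higher, against 0.864%, and 1 was lower, against 0.982%. This was MTA_Mm-int (−0.57 ± 0.10, adjusted p = 0.0222). The median over the class was 0.02, where it had been −0.36 in control. Other classes also had negative medians in control, and in MERVL-KD stood at 0.02 (ERVK), 0.12 (SINE), 0.07 (ERVL), −0.02 (ERV1) and −0.14 (LINE/L1). Within ERVL-MaLR the MTD LTR is an example. It held 667 and 692 CPM at the 4-cell stage and 517 and 491 at the 8-cell stage in control, but 529 and 586 and then 585 and 600.2 in MERVL-KD. The difference between these changes did not pass the test for any of the 75 types in edgeR, as given above for the 8-cell against the 4-cell stage.

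**Figure D4:**
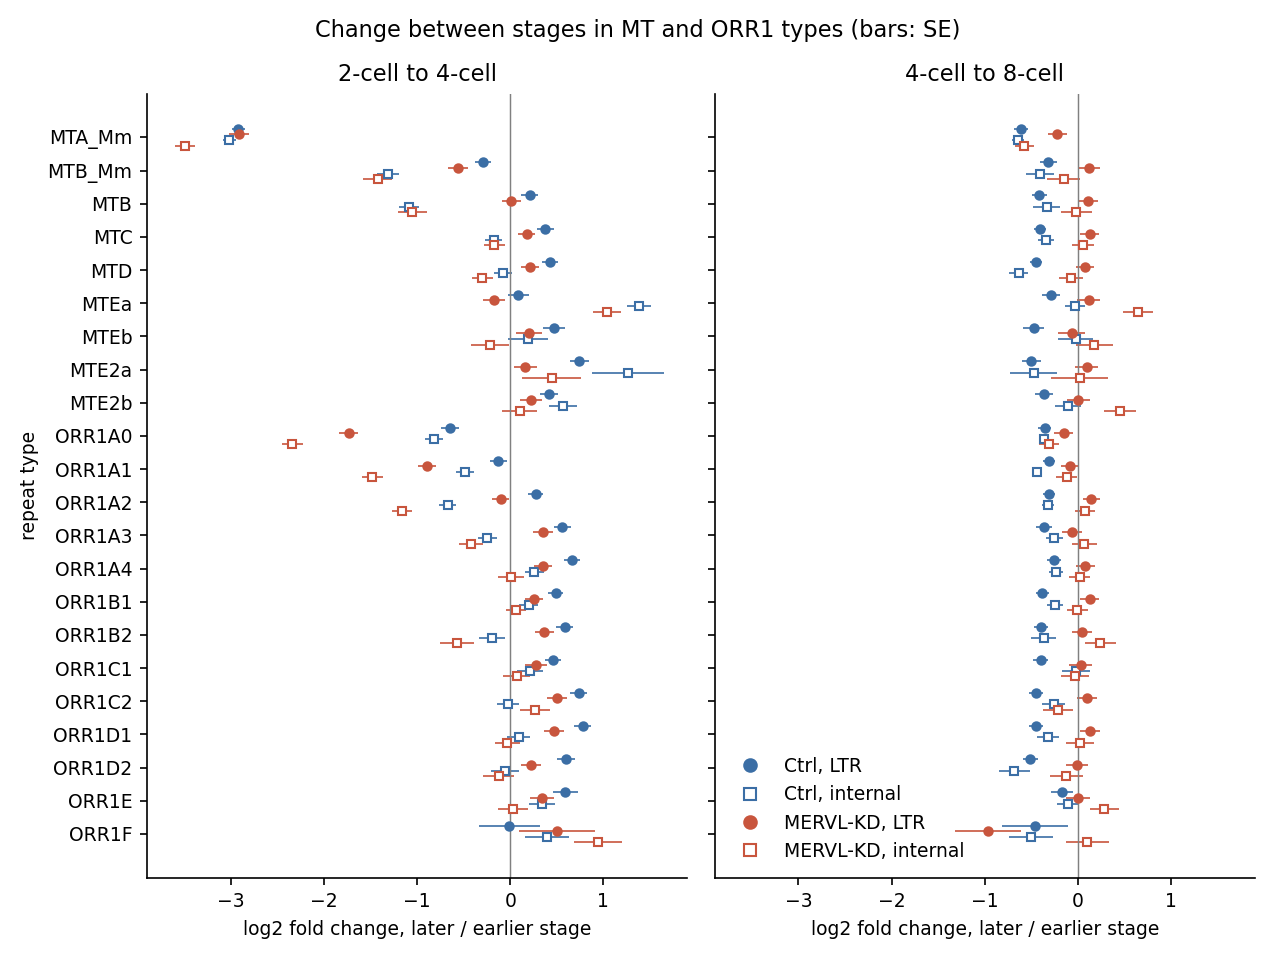
Log2 fold change between stages (x axis, later over earlier, bars SE) in control (blue) and MERVL-KD (red) for LTR (circles) and internal regions (squares) of MT and ORR1 types. MTA falls steeply in both from the 2-cell to the 4-cell stage, ORR1A0 to ORR1A2 lie further left in MERVL-KD, and from the 4-cell to the 8-cell stage the control points lie left of 0 while the MERVL-KD points scatter around it.

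Internal counts per LTR count were compared in 10 subfamilies. In 5 of them, ORR1A0, ORR1A1, ORR1A2, MTB_Mm and ORR1E, both MERVL-KD libraries lay below both controls at all 3 stages. MTB and MTC were lower in this sense at the 2-cell and 8-cell stages and overlapped at the 4-cell stage. ORR1D1 went the other way, being higher in MERVL-KD at the 2-cell and 4-cell stages and overlapping at the 8-cell stage. The share of such separation over other pairs of LTR and internal region was not counted. For MTA_Mm, control libraries held 2.43 and 2.42 internal counts per LTR count at the 2-cell stage, 2.26 and 2.27 in 4-cell embryos, and 2.18 and 2.26 in 8-cell embryos. MERVL-KD libraries held 2.45 and 2.39, then 1.61 and 1.62, then 1.23 and 1.29. The ratios of the groups thus overlapped at the 2-cell stage, when MTA was already lower by more than 2-fold, and were lower in MERVL-KD at the later stages. ORR1A0 had 7.22 and 7.62 in control against 6.61 and 6.38 with the knockdown at the 2-cell stage, 6.54 and 6.70 against 4.34 and 4.20 at the 4-cell stage, and 6.58 and 6.56 against 3.78 and 3.92 at the 8-cell stage. ORR1A1 had 5.43 and 5.54 against 4.31 and 3.80 at the 4-cell stage and 4.99 and 5.01 against 4.03 and 3.90 at the 8-cell stage. The older MTB_Mm had 0.424 and 0.425 against 0.350 and 0.309 at the 2-cell stage and 0.196 and 0.197 against 0.151 and 0.149 at the 8-cell stage, and ORR1E had 1.20 and 1.18 against 0.858 and 1.02 at the 2-cell stage, so that a lower ratio was not particular to the youngest subfamilies. In MTD, which was not called at any stage, the ratio overlapped between the groups at each of the 3 stages and lay between 0.0930 and 0.167 in all libraries. These ratios are given per library and were not tested.

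**Figure D5:**
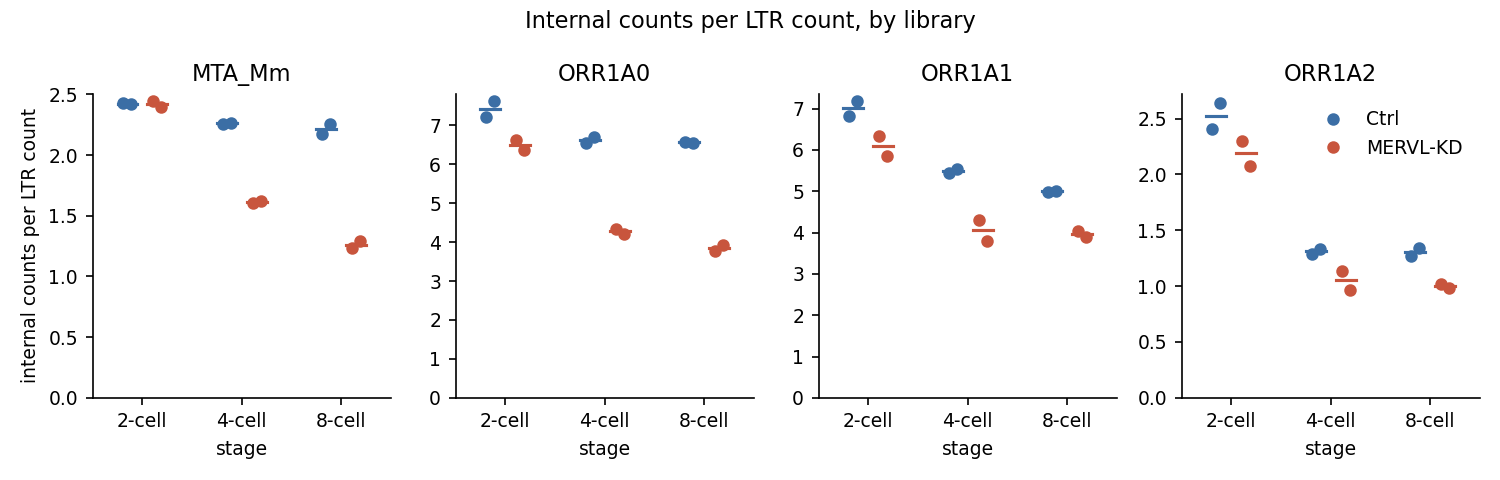
Internal counts per LTR count (y axis, from 0) of 4 subfamilies by stage; each point is 1 library and each bar the mean of 2. The MTA_Mm ratio overlaps between control and MERVL-KD at the 2-cell stage and lower in MERVL-KD at the 4-cell and 8-cell stages, and the ORR1A0 ratio is lowest in MERVL-KD 8-cell libraries.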

How the data were processed

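Total RNA-seq counts of 12 libraries were analyzed; 12 ATAC-seq samples were not analysed here. The authors aligned reads with STAR 2.5.3a to GRCm38, kept unique alignments and assigned them with featureCounts to GENCODE genes or RepeatMasker types; the deposited values are raw counts, with a mean copy length. Unique alignment leaves near-identical young copies undercounted. Of the counts between 1 and 50, 71.7% to 74.5% were even, so both mates were mostly counted and independent fragments are fewer than counts. Counts carry no molecular identifiers. The SEs cover counting error and the spread between pools, and the spread between single embryos was not measured.

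Log2 fold changes, SEs and p-values came from edgeR 4.0.16 in R 4.3.3 (filterByExpr, TMM, robust quasi-likelihood fit), within the 2 groups compared, or in 1 fit of the 12 libraries for differences between stages. CPM used 1 TMM scaling over all libraries. The procedure was tested on simulated data. Replicates of each group differed beyond sampling noise (chi-square per degree of freedom 12.9 to 22.6 over all features and 8.20 to 188 over ERVL-MaLR types). Alternatives were DESeq2 1.42.0 and its size factors, total counts, TMM on genes, filters at 1 and 10 counts, a replicate block, 1 joint fit, a non-robust fit, other fold thresholds, halved counts and each library left out. Named types are those called in any MERVL-KD comparison or stage difference, the 5 most abundant of each family, paired LTR and internal types, and the 3 largest called changes in each direction between control stages; others were named after their values were seen. Members and lists were chosen with earlier results of these data known.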

Additional observations from a re-analysis of the deposited data

Results flagged for a closer look

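The effect of the knockdown differed between stages, by the test of the difference in 1 edgeR fit, for 5 types at the 4-cell against the 2-cell stage: ORR1A0-int (−1.47), ORR1A0 (−1.04), ORR1A1-int (−0.95), ORR1A1 (−0.72) and MTA_Mm-int (−0.43, no longer past the test without any 1 of 6 libraries). At the 8-cell against the 2-cell stage it differed for ORR1A0-int (−1.42), ORR1A0 (−0.84), ORR1A1-int (−0.63) and ORR1A1 (−0.50). All are differences of log2 fold changes. No group had the 4 samples that a search for single outlying libraries needs.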

How the results depend on the processing

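Unless all features are named, the number in the values below is of ERVL-MaLR types called, set against the number in the report. Total counts in place of TMM gave 0 (2) for the 2-cell knockdown, 1 (0) for control from the 4-cell to the 8-cell stage, 18 (5) for the 4-cell minus 2-cell difference and 7 (0) for 8-cell minus 4-cell. Over all features they gave 301 lower and 1751 higher (473 and 909) for the 2-cell knockdown, and 421 and 68 (202 and 129) for that control step. Over all features they gave 1387 more negative and 231 more positive effects (411 and 614) for 4-cell minus 2-cell, and 66 and 110 (84 and 75) for 8-cell minus 4-cell. DESeq2 gave 8 and 9 for these differences, a minimum of 10 counts in every library 9 and 5, and for 8-cell minus 4-cell a minimum of 1 count 2 and halved counts 1. One fit of all 12 libraries gave 1 for control from the 4-cell to the 8-cell stage. Without a fold threshold the knockdown counts were 5, 10 and 8 at the 3 stages, control 36 and 27, and MERVL-KD 25 and 1; at 1.5-fold the 8-cell knockdown had 6, and control 24 and 5.

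Leaving out 1 library gave 2 to 3, 5 to 7 and 2 to 2 types for the knockdown at the 3 stages, 9 to 13 (12) and 0 to 0 for control, 11 to 12 (11) and 0 to 0 for MERVL-KD, and 4 to 9, 2 to 5 (4) and 0 to 3 for 4-cell minus 2-cell, 8-cell minus 2-cell and 8-cell minus 4-cell. For 4-cell minus 2-cell the count was 9 without MERVL-KD 8-cell replicate 2 and 8 without either control 8-cell replicate; for 8-cell minus 2-cell it was 2 without replicate 1 of either 2-cell group; for 8-cell minus 4-cell it was 3 without either control 2-cell replicate or MERVL-KD 4-cell replicate 2, and 2 without either MERVL-KD 2-cell replicate or MERVL-KD 8-cell replicate 2. A lone replicate was then assumed to vary like the other groups. Replicate numbers did not pair the samples (correlations of deviations −0.0132 to 0.0203); with the replicate as a block the counts were 2, 5, 2, 11, 0, 11, 0, 5, 4 and 0 in the same order. Without MERVL-int and MT2_Mm in the denominator the control shares were 5.56%, 1.92% and 1.23%, and the MERVL-KD shares 3.85%, 1.03% and 0.898%. The cause of these changes was not tested, and none of these alternatives reversed a call. Low counts kept 25 of 99 types out of the knockdown tests at every stage.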
